A study of Homo sapiens with 6 samples.

Results

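The RAB small GTPases, the largest branch of the Ras superfamily, were examined in serum-starved human fibroblasts after depletion of MCM7. Members were taken by name from the deposited count table: symbols made of RAB, a number and at most a letter and a digit, together with RABL2A, RABL2B, RABL3 and RABL6. The pattern matched 74 names, of which 8 were described as pseudogenes in the table and were set aside, which left 66 RAB genes of 58302 genes listed. The cells were hTert 1BR3 fibroblasts, an established human skin fibroblast line immortalized with telomerase. In 3 samples they were transfected with a pool of siRNAs against MCM7, part of the ring-shaped helicase that opens DNA at replication forks, and in the other 3 with non-targeting control siRNAs. All cells were afterwards deprived of serum, which halts division and allows a primary cilium to form. The line has a single origin, and nothing in the labels says that replicates came from separate cultures, which leaves each p-value a measure of the spread of these samples, possibly technical.

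RAB proteins are molecular switches that cycle between a GDP-bound and a GTP-bound state. Exchange factors (GEFs) load them with GTP on a given membrane, active RABs recruit effectors such as motors, tethers and coat adaptors, and GTPase-activating proteins (GAPs) end the signal. Prenylated RABs are carried through the cytosol by GDI chaperones. In fibroblasts they direct cargo between the endoplasmic reticulum (ER), Golgi, endosomes, lysosomes and plasma membrane, and a cascade from RAB11 to RAB8 delivers membrane to the growing primary cilium.

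Between 13721281 and 23969024 reads were assigned to genes in the MCM7 siRNA libraries, and between 18669386 and 21380345 in the control libraries. MCM7 itself had 48, 68 and 76 reads after MCM7 siRNA, against 509, 594 and 662 reads after control siRNA. Its level in CPM (counts scaled to the library total and its TMM factor) was 11.4% of the control level (log2 fold change -3.15 ± 0.10 SE, adjusted p = 1.42e-19 in edgeR). All 10 fibroblast markers were detected, at a summed 67162 to 69896 CPM after MCM7 siRNA and 64008 to 70031 CPM after control siRNA. Most of this sum came from COL1A1, COL1A2 and COL3A1. Of these markers 3 were higher (COL3A1, PDGFRA and PDGFRB) and 4 lower (VIM, FAP, S100A4 and P4HB) at an edgeR adjusted p under 0.05. That is 70.0% called, against 12.8% of all genes tested. Epithelial markers summed to at most 1.13 CPM after MCM7 siRNA and 1.5 CPM after control siRNA, with ESRP1 and KRT5 at 0, and immune markers to at most 1.10 and 1.56 CPM, with MS4A1 and CD3E among those at 0. Endothelial markers summed to 14.0 to 17.0 CPM after MCM7 siRNA and 14.4 to 15.4 CPM after control siRNA, nearly all of it from TEK.

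Most of the RAB repertoire differed little after MCM7 depletion, and a single member, RAB39B, moved by more than 1.5-fold. Enough reads for a test were found for 55 of the 66 genes. Of these 55 genes, 3 rose (RAB39B, RAB3B and RABL2B), 5 fell (RAB12, RAB7B, RAB21, RAB1B and RAB6B) and 47 did not pass an adjusted p of 0.05 in the quasi-likelihood test of edgeR. The share called was 14.5% of RAB genes, against 12.8% of all 14667 genes tested, so RAB genes were called at about the rate of the whole table. With each library left out in turn, 562 to 1080 of all genes were higher and 589 to 1185 lower, against 906 and 975 with all libraries, the lowest without control replicate 3. By direction, 6.18% of all genes were higher and 6.65% lower. Of the 55 RAB genes tested, 7 were called by both edgeR and DESeq2, with the call of RAB6B alone lost, against 8.62% of all genes. RAB39B was the 1 RAB gene of 55 that also changed at least 1.5-fold, against 1.28% of all genes by edgeR and 0.682% by both tools. The median log2 fold change was -0.02 over RAB genes and -0.00 over all genes tested, and the median size of the change regardless of sign was 0.11 and 0.12. The 3 MCM7 siRNA libraries lay entirely above or below the 3 control libraries for 18 RAB genes (32.7%), 10 of them higher and 8 lower, against 29.6% of all genes tested, 14.6% higher and 15.0% lower.

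**Figure D1:**
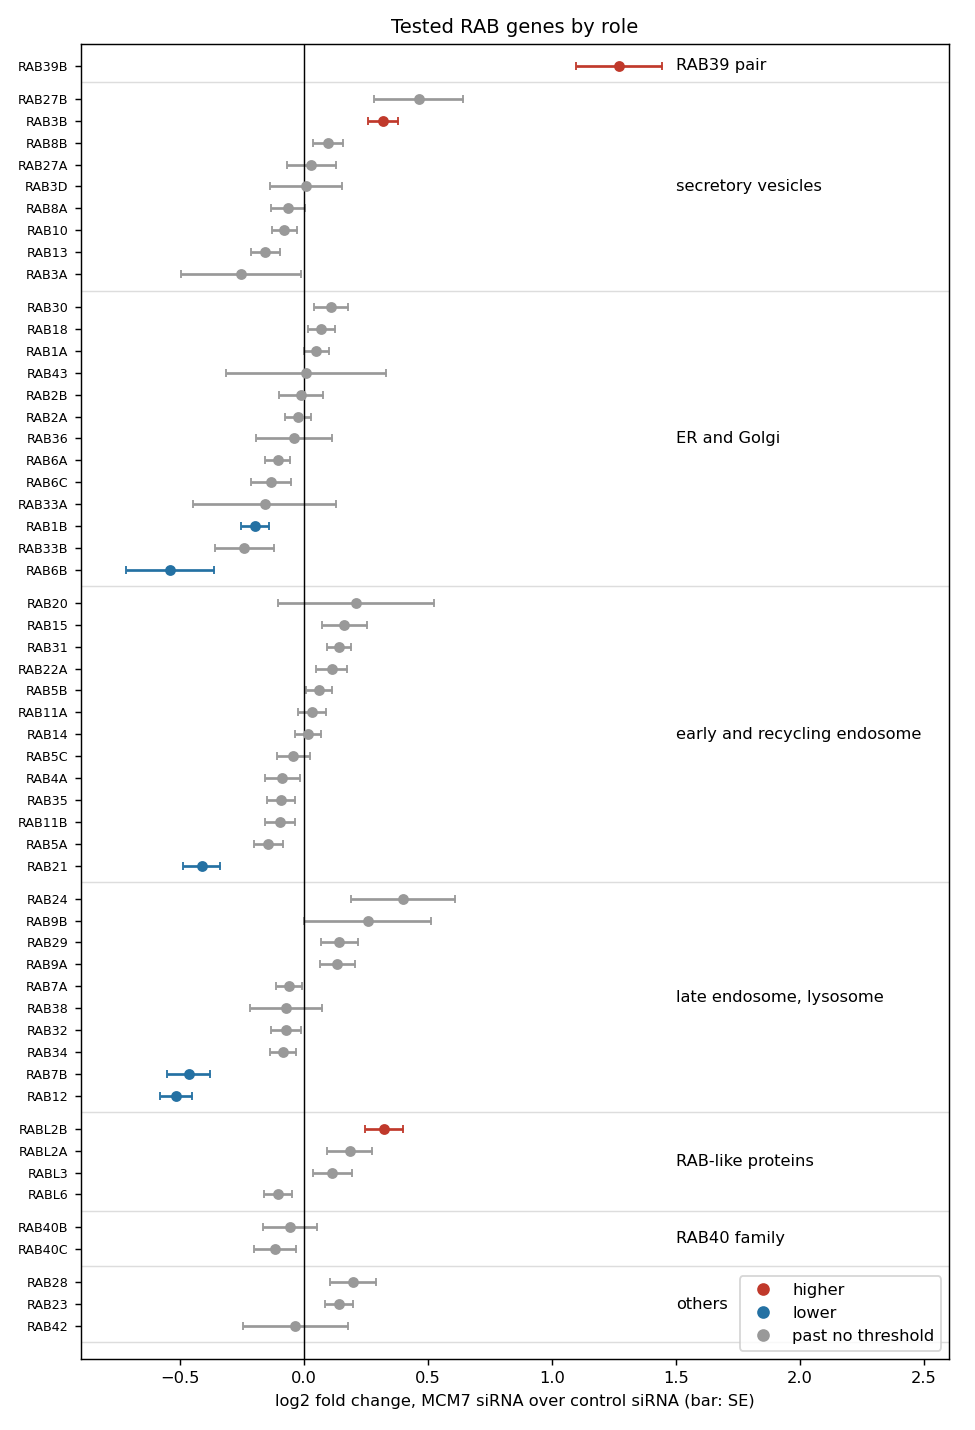
Log2 fold change of MCM7 siRNA over control siRNA (horizontal axis) for the 55 tested RAB genes, grouped by role and ordered by value within a group; bars are SE, and colour marks genes past an adjusted p of 0.05. RAB39B stands at 1.27, while the 47 genes that passed no threshold lie between -0.25 and 0.46.

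RAB39B showed the clearest rise. It encodes a RAB that is abundant in neurons, is mutated in an X-linked form of intellectual disability with early parkinsonism, and binds PICK1 to control the traffic of a glutamate receptor subunit. The gene lies on the minus strand of chromosome X at 155258235 to 155264491 (GRCh38). Its level was 3.95, 3.92 and 4.31 CPM in the MCM7 siRNA libraries, against 1.88, 1.79 and 1.42 CPM in the control libraries. The lowest MCM7 siRNA library was thus above the highest control library, and the spread within each group was small beside the gap. In reads, these levels rest on 54, 80 and 103 reads after MCM7 siRNA and 35, 36 and 30 reads after control siRNA. The change was 2.41-fold (log2 fold change 1.27 ± 0.17 SE, adjusted p = 5.92e-06 in edgeR), which ranked 13 from the top among all genes tested. DESeq2 gave an adjusted p of 2.92e-05, and the call held when each library in turn was left out (edgeR adjusted p between 1.12e-05 and 0.000224).

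Even after the rise RAB39B remained a low member of the family, with a mean of 1.16 RPKM (reads scaled to both library total and a length per gene) after MCM7 siRNA and 0.482 RPKM after control siRNA, and rank 47 of the 66 genes by mean RPKM over all libraries. Its paralogue RAB39A, which acts in phagosomes and late endosomes, could not be tested, because a single read was assigned to it in all libraries together, in control replicate 1. No 50-base stretch of the canonical RAB39B transcript occurs in another annotated gene. Of its 12 tested neighbours within 500 kb, only DKC1, a pseudouridine synthase gene, passed the threshold, and it was lower (log2 fold change -0.21, edgeR adjusted p = 0.0301). The adjacent genes CLIC2 and VBP1 had log2 fold changes of 0.16 and -0.12 (edgeR adjusted p = 0.618 and 0.424).

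Genes that are thought to act with RAB39B did not show a common direction. C9orf72, SMCR8 and WDR41 encode a complex reported to act as an exchange factor for it. C9orf72 had 2.12, 2.25 and 2.68 CPM after MCM7 siRNA and 2.68, 2.14 and 2.36 CPM after control siRNA. SMCR8 and WDR41 had log2 fold changes of 0.11 and -0.00, and none of the complex passed the threshold (edgeR adjusted p of at least 0.301). PICK1, the effector of RAB39B named above, fell to 1.76, 1.67 and 2.05 CPM after MCM7 siRNA, against 2.79, 3.04 and 2.36 CPM after control siRNA (log2 fold change -0.56 ± 0.19 SE, adjusted p = 0.0462 in edgeR). The PICK1 call was lost with DESeq2 (adjusted p = 0.200), with library size alone (0.0506), after thinning to the smallest library (0.364) and without control replicate 1 or 2 or MCM7 siRNA replicate 1 or 2 (between 0.110 and 0.180).

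Several RABs are known mainly from neurons, and they did not share a direction: RAB39B and RAB3B rose, RAB6B fell (log2 fold change -0.54, edgeR adjusted p = 0.0422) and RAB3A had -0.25 without passing. Neuronal markers were read beside them. Summed over 8 markers, they stood at 25.6 to 29.5 CPM after MCM7 siRNA and 21.5 to 26.9 CPM after control siRNA, nearly all of it from SYT1 and STMN2. Only 3 of the 8 could be tested, and SYT1, a calcium sensor of vesicle fusion, was the 1 that passed: it rose to 19.1, 17.3 and 19.7 CPM after MCM7 siRNA, against 16.0, 12.7 and 14.4 CPM after control siRNA (log2 fold change 0.39, edgeR adjusted p = 0.00298). The neuronal genes SNAP25 and RBFOX3 were at or below 0.0766 CPM on average in either group. SYP and STMN2 had log2 fold changes of 0.09 and 0.00 (edgeR adjusted p = 0.915 and 0.996). The part of these markers in the results for RAB39B, RAB3B and RAB6B was not tested. In bulk RNA, fewer cells of a type and less RNA per cell cannot be told apart.

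**Figure D2:**
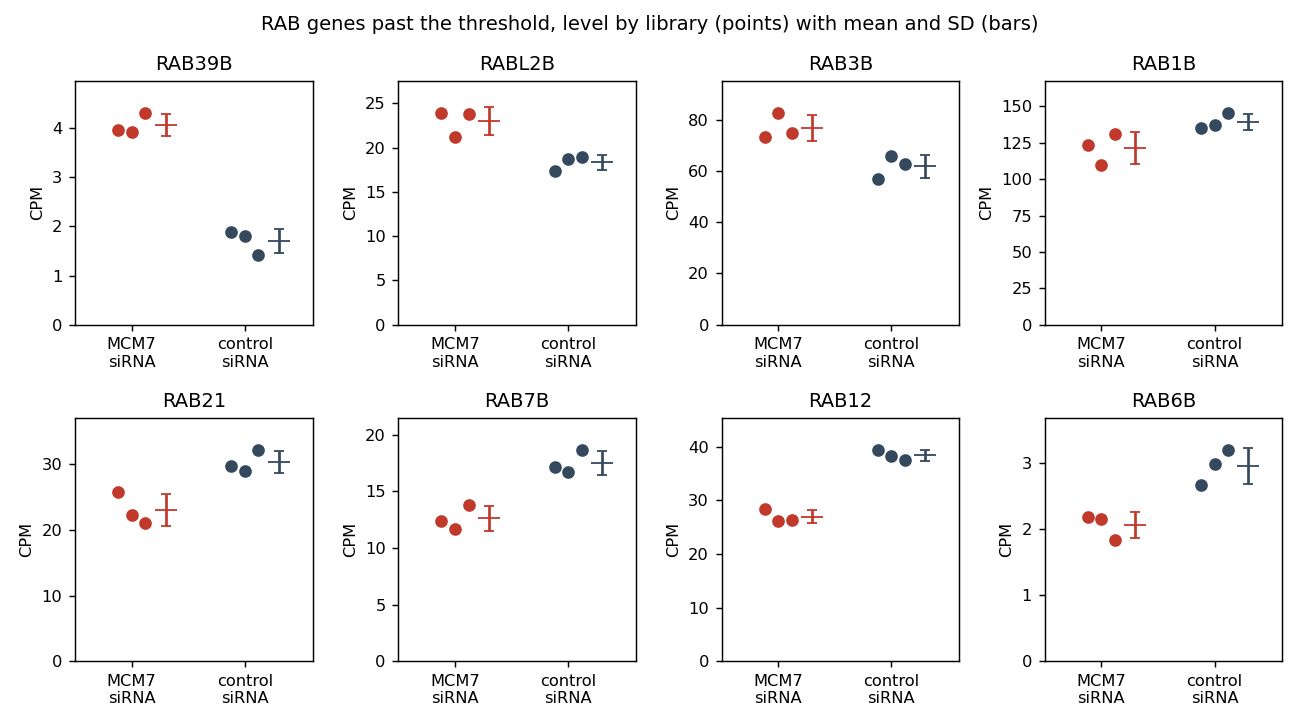
Level in CPM (vertical axes, from 0) of the 8 RAB genes past the threshold, by library, with MCM7 siRNA left of control siRNA; points are libraries, and bars beside them the mean and SD of 3. In each panel the groups do not overlap, and the gap is widest relative to the level for RAB39B, with 3.92 to 4.31 CPM after MCM7 siRNA and 1.42 to 1.88 CPM after control siRNA.

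Among RABs of secretory vesicles, 1 of 9 tested genes rose and none fell (11.1% called, against 12.8% of all genes). This was RAB3B, which controls regulated exocytosis of hormones and transmitters. It had 73.2, 82.7 and 74.8 CPM after MCM7 siRNA, against 56.9, 65.8 and 62.6 CPM after control siRNA. Every MCM7 siRNA library was above every control library, by 1.25-fold in the fit (log2 fold change 0.32 ± 0.06 SE, adjusted p = 0.000464 in edgeR). Its relatives RAB3A and RAB3D, which share its role in exocytosis, had log2 fold changes of -0.25 and 0.01 with overlapping groups (edgeR adjusted p = 0.554 and 0.983). Per length, RAB3B was 3.61, 3.58 and 3.77 times the sum of RAB3A and RAB3D in the MCM7 siRNA libraries and 2.76, 2.44 and 3.08 times that sum in the control libraries. RAB27B, which docks secretory granules and exosome-bearing endosomes, had the highest value among genes that missed the threshold, with 2.56, 2.89 and 3.30 CPM after MCM7 siRNA and 2.41, 1.89 and 2.17 CPM after control siRNA (log2 fold change 0.46 ± 0.18 SE, adjusted p = 0.0869 in edgeR). RAB13, a regulator of cell junctions, had a log2 fold change of -0.16 (adjusted p = 0.0726). Its value depended on single control libraries, with -0.23 without control replicate 3 (adjusted p = 0.0122) and -0.10 without control replicate 1 (adjusted p = 0.376).

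On the late endosome and lysosome, 2 of 10 tested RABs fell and none rose, where 6.65% of all genes fell, so the count is too small to read against that share. RAB12, which routes transferrin receptor from recycling endosomes to lysosomes and is a substrate of the Parkinson's disease kinase LRRK2, had 28.3, 26.2 and 26.3 CPM after MCM7 siRNA, against 39.5, 38.2 and 37.5 CPM after control siRNA. The groups were far apart relative to their spread, and RAB12 had the smallest p of all RAB genes (log2 fold change -0.52 ± 0.06 SE, adjusted p = 1.49e-06 in edgeR). RAB7B, which returns cargo from late endosomes to the trans-Golgi network, had 12.4, 11.7 and 13.8 CPM after MCM7 siRNA, against 17.2, 16.7 and 18.7 CPM after control siRNA. Here too no library crossed into the other group (log2 fold change -0.46 ± 0.09 SE, adjusted p = 0.000411 in edgeR). RAB7A, the general late endosome RAB, had 268, 246 and 293 CPM after MCM7 siRNA and 285, 276 and 280 CPM after control siRNA, and these groups overlapped (log2 fold change -0.06, edgeR adjusted p = 0.520). The RPKM of RAB7B over that of RAB7A was 0.0342, 0.0350 and 0.0348 in the MCM7 siRNA libraries and 0.0444, 0.0445 and 0.0492 in the control libraries, a ratio that did not overlap between groups. The ratio rests on the same RAB7B reads and is no separate evidence.

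Of 13 tested RABs of the early and recycling endosome, only RAB21 passed the threshold (7.69% called, against 12.8% of all genes). RAB21 binds integrin alpha chains and drives their endocytosis and recycling. It fell to 25.8, 22.2 and 21.1 CPM after MCM7 siRNA, against 29.7, 29.0 and 32.2 CPM after control siRNA (log2 fold change -0.41 ± 0.08 SE, adjusted p = 0.000307 in edgeR). The highest MCM7 siRNA library was below the lowest control library. For RAB5A, which fuses early endosomes, the groups also did not overlap, but its log2 fold change of -0.14 missed the threshold (edgeR adjusted p = 0.112, and 0.0498 without MCM7 siRNA replicate 2), and RAB5B and RAB5C had log2 fold changes of 0.06 and -0.04. RAB31, which links the trans-Golgi network to endosomes, was just outside it, with 116, 121 and 114 CPM after MCM7 siRNA and 106, 107 and 107 CPM after control siRNA (log2 fold change 0.14, edgeR adjusted p = 0.0547). RAB31 passed in 5 alternatives: with library size alone (adjusted p = 0.0414), with a filter of 1 CPM in 3 samples (0.0475), with limma on RPM at either pseudocount (0.0404 and 0.0424) and without MCM7 siRNA replicate 3 (0.0242).

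The matches of RAB21 and RAB3B to a 7-mer are shown because these genes, which carry the most among RAB genes, moved in opposite directions. GAGATGA was searched on the transcript strand of canonical GENCODE 44 transcripts since an earlier analysis of the same libraries had linked it to lower values over all genes. It occurs at 5 places in the 14613-base 3′ UTR of RAB21 and at 2 in the 11971-base 3′ UTR of RAB3B. Capitals mark the 7-mer in the windows below, which show all places in RAB21 and 1 of those in RAB3B and are GRCh38 sequence read 5′ to 3′ on the transcript strand.
RAB21 at chr12:71786835-71786864, plus strand: ttattatagaaGAGATGActtctgctgatt
RAB21 at chr12:71787092-71787121, plus strand: attgcttgccaGAGATGAacacagaatgtt
RAB21 at chr12:71788130-71788159, plus strand: aaaactagttaGAGATGAaattgagcttta
RAB21 at chr12:71788511-71788540, plus strand: ggaaagacaaaGAGATGAtaaaccaaggct
RAB21 at chr12:71792774-71792803, plus strand: gttggaacctaGAGATGAgctgatacctgt
RAB3B at chr1:51913213-51913242, minus strand: tcaagacactcGAGATGAagaagttttgat

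Over all 11903 tested genes with a 3′ UTR of at least 50 bases, 15.0% carry GAGATGA, and 16.4% of RAB genes (9 of 55) do so. The share was 15.0% of genes called higher, 22.0% of genes called lower and 14.4% of genes not called. These shares restate the observation that led to the search, made in the same libraries, and are no separate evidence. The median 3′ UTR length was 2264 bases in genes called higher, 940 bases in genes called lower and 1374 bases in genes not called. Genes that carry the 7-mer had longer 3′ UTRs, with a median of 3285 bases against 1408 bases over all genes searched. RAB12, RAB7B, RAB6B, RAB1B, RABL2B and RAB39B carry none. The other matches, 1 in each gene, are in RAB30, RAB40C, RAB43, RAB5A, RAB6A, RAB7A and RABL3, which all missed the threshold. A match is a run of letters and was not tested as a site.

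RABs of the ER and Golgi held 2 genes that fell and none that rose among 13 tested. That is 15.4% called, where 12.8% of all genes were called and 6.65% were lower, a count too small to read against these shares. RAB1B, needed for transport from the ER to the Golgi, had 123, 110 and 131 CPM after MCM7 siRNA, against 135, 137 and 146 CPM after control siRNA. The groups did not overlap, but the drop was small (log2 fold change -0.20 ± 0.06 SE, adjusted p = 0.0193 in edgeR), and the call was lost without control replicate 2 or 3 or MCM7 siRNA replicate 2 (adjusted p = 0.0531, 0.142 and 0.130). Its paralogue RAB1A had 140, 138 and 134 CPM after MCM7 siRNA and 137, 128 and 134 CPM after control siRNA (log2 fold change 0.05, edgeR adjusted p = 0.567). RAB6B, the form of the Golgi RAB6 found mainly in neurons, had 2.19, 2.16 and 1.84 CPM after MCM7 siRNA, against 2.68, 2.99 and 3.21 CPM after control siRNA. These levels rest on 30 to 44 reads after MCM7 siRNA and 50 to 68 reads after control siRNA (log2 fold change -0.54 ± 0.18 SE, adjusted p = 0.0422 in edgeR). The RAB6B call is weak, since DESeq2 gave an adjusted p of 0.213 and leaving out any 1 library lost it (edgeR adjusted p between 0.0548 and 0.172). RAB6A, the form found in all cells, had a log2 fold change of -0.11 (edgeR adjusted p = 0.182).

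RABs and RAB-like proteins linked to the primary cilium were of interest because serum starvation brings out this organelle. Of 12 tested genes 1 rose and none fell (8.33% called, against 12.8% of all genes). This was RABL2B, which recruits intraflagellar transport trains to the ciliary base, with 23.9, 21.2 and 23.8 CPM after MCM7 siRNA and 17.4, 18.7 and 19.0 CPM after control siRNA (log2 fold change 0.32 ± 0.08 SE, adjusted p = 0.00429 in edgeR). Its level is uncertain, because 65.3% of the 50-base stretches of its transcript occur in other genes, foremost its copy RABL2A, and reads from these were not kept. RABL2A had 14.3, 13.3 and 14.2 CPM after MCM7 siRNA and 12.01, 13.4 and 11.4 CPM after control siRNA, and its groups overlapped (log2 fold change 0.18, edgeR adjusted p = 0.188). The ratio of RABL2B to RABL2A in RPKM overlapped between groups as well.

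The core of the ciliary cascade did not pass. RAB8A and RAB8B, which bring vesicles to the ciliary base, had log2 fold changes of -0.07 and 0.10, and RAB11A and RAB11B, which act before them, had values of 0.03 and -0.10 (edgeR adjusted p of at least 0.324 for all 4). RAB23, a brake on Hedgehog signalling, had 72.1, 74.0 and 65.6 CPM after MCM7 siRNA and 63.9, 63.8 and 63.9 CPM after control siRNA. Its groups did not overlap, but the difference missed the threshold (log2 fold change 0.14 ± 0.06 SE, adjusted p = 0.0963 in edgeR), and it passed only without MCM7 siRNA replicate 3 (adjusted p = 0.0114). RAB28, mutated in a cone-rod dystrophy, had a log2 fold change of 0.20 (adjusted p = 0.165). The values of RAB10, RAB29, RAB34 and RAB35 were -0.08, 0.14, -0.08 and -0.09. RAB34, which is needed to build the ciliary vesicle inside the cell, was among the 10 most abundant RABs.

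**Figure D3:**
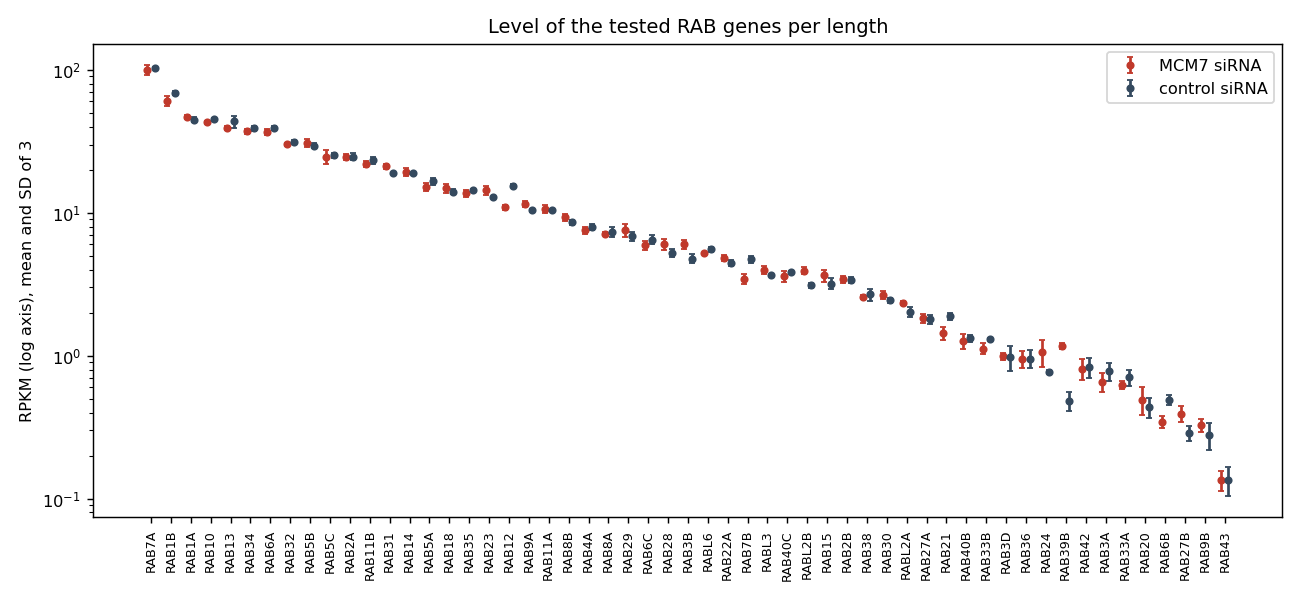
Level of the 55 tested RAB genes in deposited RPKM (vertical log axis), ordered from the highest to the lowest mean over the 6 libraries; for each gene MCM7 siRNA is the left and control siRNA the right point, with the SD of 3. RAB7A leads at 99.2 and 103 RPKM, and RAB39B is at 1.16 and 0.482 RPKM.

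Per length, the RAB repertoire was dominated by a few genes. RAB7A had the highest level, with 99.2 ± 7.9 RPKM after MCM7 siRNA and 103 ± 1.8 RPKM after control siRNA (SD, n = 3 each). RAB1B followed with 60.7 ± 4.9 RPKM after MCM7 siRNA and 69.0 ± 2.5 RPKM after control siRNA. Next came RAB1A, RAB10, RAB13, RAB34, RAB6A, RAB32, RAB5B and RAB5C, from 46.8 to 24.6 RPKM after MCM7 siRNA and from 44.8 to 25.2 RPKM after control siRNA. These 10 genes held 59.97% to 63.1% of the summed RPKM of RAB genes after MCM7 siRNA and 62.4% to 62.8% after control siRNA, and RAB1B was the only 1 of them called. The lowest tested gene, RAB43, was 745 times below RAB7A, but more than 20% of its 50-base stretches occur in other genes, as do those of RAB13, RAB24, RAB5C, RAB6A, RAB6C, RABL2A, RABL2B and RABL6, so the levels of these 9 genes are uncertain. For RAB43, RAB13, RAB24, RAB5C and RABL6 the sharing genes include some that overlap them on the same strand in GENCODE 44. Reads were counted on another annotation, and whether these genes lost reads was not tested. Summed over the family, RAB genes made up 2762, 2690 and 2781 CPM after MCM7 siRNA, against 2818, 2771 and 2781 CPM after control siRNA, and these groups overlapped.

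The precision of the 47 RAB genes that missed the threshold depended on their level. In the 34 with a mean of 10 CPM or more, the median SE of the log2 fold change was 0.06 and the largest change in either direction was 0.20. In the 13 below 10 CPM the median SE was 0.21, so their changes were measured less closely. An unadjusted p under 0.05 was reached by 16 RAB genes (29.1%), against 26.1% of all genes tested. The 8 of these that were not called comprised RAB31, RAB27B, RAB23, RAB28 and RABL2A with positive values and RAB13, RAB5A and RAB6A with negative values. Too few reads for a test were found for RAB17, RAB19, RAB25, RAB26, RAB37, RAB39A, RAB3C, RAB40A, RAB41, RAB44 and RAB4B, with at most 9 reads in any library. RAB19 and RAB25 had none. The whole canonical transcript of RAB4B also occurs in the readthrough genes MIA-RAB4B and RAB4B-EGLN2, which overlap it on the same strand. How reads in such shared stretches were assigned is not stated, so its low count is uncertain. Of the RAB40 family, whose proteins carry a SOCS box, RAB40B and RAB40C were tested and had log2 fold changes of -0.06 and -0.12. The RAB-like proteins RABL3 and RABL6 had values of 0.11 and -0.10.

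The genes that act on or with RABs were read from lists of chaperones, exchange factors, GAPs and effectors. Of 147 tested genes 12 rose and 8 fell (13.6%), close to the 12.8% of all genes. Of 9 chaperones and prenylation genes, 2 fell and none rose. That is 22.2% called, where 12.8% of all genes were called and 6.65% were lower, too few genes to read against these shares. RABAC1, a membrane protein that binds prenylated RABs, had 51.3, 51.0 and 53.5 CPM after MCM7 siRNA, against 64.98, 65.1 and 64.6 CPM after control siRNA (log2 fold change -0.32 ± 0.05 SE, adjusted p = 0.000132 in edgeR). GDI2, which extracts RABs from membranes, had a log2 fold change of -0.15 (adjusted p = 0.0295), but its call was lost without MCM7 siRNA replicate 1 or any 1 control replicate (adjusted p between 0.0613 and 0.153).

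Exchange factors had 6 genes that rose and 1 that fell among 54 tested (13.0% called, against 12.8% of all genes, of which 6.18% were higher and 6.65% lower). RIC1, a subunit of the exchange factor for RAB6, had 58.9, 63.1 and 60.4 CPM after MCM7 siRNA, against 47.9, 45.6 and 47.0 CPM after control siRNA (log2 fold change 0.38 ± 0.06 SE, adjusted p = 2.26e-05 in edgeR). SBF2, an exchange factor for RAB21, had 84.1, 89.3 and 85.0 CPM after MCM7 siRNA, against 71.6, 73.0 and 70.7 CPM after control siRNA. Its rise (log2 fold change 0.26, edgeR adjusted p = 0.000732) was opposite in sign to the change of RAB21 itself. GAPVD1, which activates RAB5, rose by 0.26 on the log2 scale (a call lost without control replicate 1, adjusted p = 0.0528), and DENND6A, which activates RAB14, rose by 0.46. DENND2A, an activator of RAB9, rose by 0.30, and MON1A, a subunit of the exchange factor for RAB7, fell by 0.32 on that scale, but these 2 calls were lost with DESeq2 (adjusted p = 0.112 for each). The DENND2A call was also lost without any 1 control replicate or MCM7 siRNA replicate 2 (edgeR adjusted p up to 0.141). That of MON1A was lost after thinning and without any 1 control replicate or MCM7 siRNA replicate 1 or 2 (up to 0.0772 with a library left out).

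Of 33 GAPs (9.09% called, against 12.8% of all genes), TBC1D8 and TBC1D2B rose (log2 fold change 0.25 and 0.16) and TBC1D17 fell (-0.19). None of them was called by DESeq2 or kept with every library left out in turn (edgeR adjusted p up to 0.102, 0.151 and 0.122). Of 51 effectors, 4 rose and 4 fell (15.7% called, against 12.8% of all genes). BICD2, the adaptor that links RAB6 vesicles to dynein, had 32.4, 30.6 and 29.3 CPM after MCM7 siRNA, against 42.3, 42.0 and 40.1 CPM after control siRNA (log2 fold change -0.44 ± 0.06 SE, adjusted p = 1.47e-05 in edgeR). APPL1 and APPL2, paired effectors of RAB5 on signalling endosomes, had opposite signs, and each call depended on single libraries. APPL1 had 41.0, 36.3 and 35.9 CPM after MCM7 siRNA, against 44.4, 44.9 and 42.6 CPM after control siRNA (log2 fold change -0.23, edgeR adjusted p = 0.0156), and the call was lost without control replicate 1 or 2 (adjusted p = 0.0637 and 0.0764). APPL2 had 204, 190 and 202 CPM after MCM7 siRNA, against 174, 173 and 176 CPM after control siRNA (log2 fold change 0.19, edgeR adjusted p = 0.00763), and the call was lost without MCM7 siRNA replicate 1 (adjusted p = 0.0602). GCC2, a golgin of the trans-Golgi network, rose by 0.30 on the log2 scale (adjusted p = 0.000986). The motor MYO5A and the phosphatase INPP5B also rose and the scaffold ERC1 fell, but DESeq2 called none of these 3, and the groups of INPP5B overlapped. Thinning also lost all 3 calls, as did leaving out certain single libraries (edgeR adjusted p up to 0.130, 0.157 and 0.210 in this order). ERC1 was lost with library size alone and with limma on RPM as well.

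**Figure D4:**
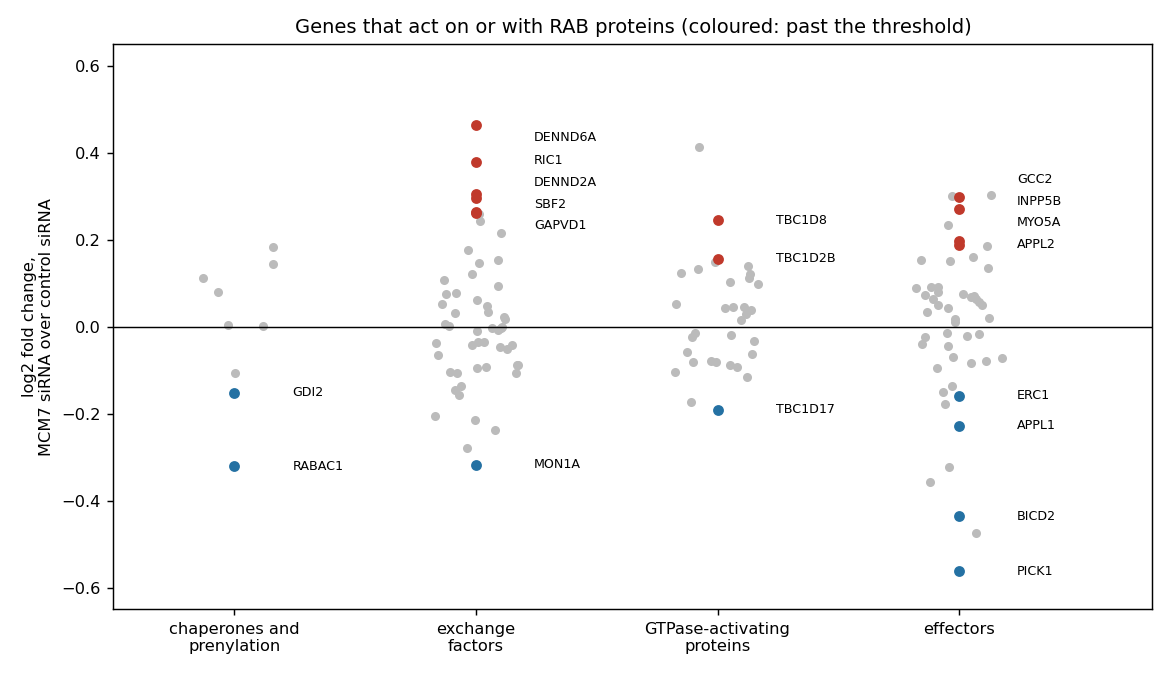
Log2 fold change of MCM7 siRNA over control siRNA (vertical axis) for the 147 tested genes that act on or with RABs, in 4 lists; points are genes, spread sideways for legibility, and the coloured genes are the 12 that rose and the 8 that fell, with names beside those described. PICK1 lies lowest of these at -0.56 and DENND6A highest at 0.46.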

How the data were processed

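RNA of 6 samples was analysed, 3 per group. Polyadenylated RNA was sequenced from 1 end in stranded libraries, as the study's methods state, and reads were kept only where they mapped uniquely to annotated loci, so genes with near-identical copies lose reads. Base calling, alignment and counting used bcl2fastq 1.8.4, TopHat2 2.1.0 and, by strand, featureCounts 1.5.0 on GRCh38, according to the submitters' processing notes and the methods. The authors deposited raw read counts per gene. The deposited RPM values are these counts scaled to a common total of assigned reads, and the deposited RPKM values are the RPM divided by 1 length per gene.

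Differences were tested on the counts with the two-sided quasi-likelihood test of edgeR 4.0.16 in R 4.3.3 (TMM scaling, filterByExpr, Benjamini-Hochberg adjustment over all 14667 genes kept, threshold 0.05). The study itself required both edgeR and DESeq. CPM values use library size and TMM factors, and RPKM served to compare levels between genes. A call means an adjusted p under 0.05. SE values are those of the log2 fold change. For edgeR they were derived as its size divided by the square root of the quasi-likelihood F statistic. Alternatives used DESeq2 1.42.0, limma 3.58.1 on log2(RPM + 0.5) and log2(RPM + 0.1), other scalings and filters, thinning to the smallest library, the replicate number as a block, the threshold of the study with its limit of 1.5-fold, and each library left out. On simulated counts for this comparison (14661 genes), changes of 1.2-fold were found by edgeR for 22% of the altered genes, those of 1.5-fold for 74%, those of 2-fold for 98.0% and those of 4-fold for 100%, with 7 false calls among 14462 genes. The simulation gave all genes the same dispersion and drew altered genes from all those above a minimum read count. These rates are therefore not specific to RAB genes or to the spread of single genes.

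The members and lists were chosen with earlier results of these data known. Named were all called RAB genes, those with an unadjusted p under 0.05, RAB39A and RAB39B, the cilium-linked RABs, the 10 highest by RPKM, up to 6 called genes per pathway list and MCM7. Other genes named (the members of untested or uncalled status set beside a relative, RAB39B neighbours, the C9orf72 complex and markers) were chosen after their values were seen. Some genes and 1 sequence that these rules take are not reported here. Coordinates and transcripts are those of GENCODE 44 on GRCh38. Figures were drawn in Python 3.11.15 with matplotlib 3.10.9.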

Additional observations from a re-analysis of the deposited data

How the results depend on the processing

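RAB39B kept its direction and call under all alternatives run (log2 fold change 1.07 to 1.34), as did MCM7, RAB12, RAB21, RAB7B, RAB3B and RABL2B apart from the limit of 1.5-fold, which MCM7 and RAB39B alone of these passed. With both tools and at least 1.5-fold, 1 RAB gene was higher and 0 were lower, and 0 of the genes that act on or with RABs passed in either direction. Of those genes 12 rose and 8 fell, against 7 and 4 with both tools, while DESeq2 alone called 4 lower and thinning to the smallest library left 5 lower. With each library left out in turn, 3 to 5 RAB genes were higher and 3 to 4 lower, with the 5 higher reached without MCM7 siRNA replicate 3 and the 3 lower without control replicate 2. Among the genes that act on or with RABs, 6 to 17 were higher and 2 to 9 lower, with 6 higher and 2 lower without control replicate 1, 2 lower without control replicate 2, 4 lower without control replicate 3 or MCM7 siRNA replicate 1, and 5 lower without MCM7 siRNA replicate 2. Near 0, the log2 fold change of RAB11A ran from -0.011 (without MCM7 siRNA replicate 2) to 0.066 and that of RAB8A from -0.109 to 0.014 (without control replicate 3) with each library left out. The cause of these shifts was not tested. Without MCM7 siRNA replicate 3, calls over all genes went up to 1080 higher and 1185 lower, although fewer samples were used. Chi-square per degree of freedom between libraries was 8.78 for MCM7 siRNA replicates 2 and 3. It was 3.35 and 3.38 for the other MCM7 siRNA pairs, 2.74 to 4.08 for control pairs and 7.74 to 16.0 between groups. Over all genes, both tools called 635 lower and DESeq2 641 lower, against 975 with edgeR. The replicate numbers did not pair the samples, with same-numbered correlations of -0.01, -0.02 and -0.01. With the replicate block 3 RAB genes were higher and 5 lower, RAB39B had a log2 fold change of 1.27, MCM7 of -3.16, and 13 of the genes that act on or with RABs were higher and 7 lower. Of the genes named, the block changed the call of PICK1 alone (edgeR adjusted p = 0.0543). With the library total as the limit of precision, changes of genes below 10 CPM were measured less closely.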
